A study of Mus musculus with 6 samples.

Results

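The replication-dependent histone genes are the protein-coding genes whose official symbols follow the patterns H1f1 to H1f5, H2ac, H2bc, H3c and H4c with a number. They were chosen by symbol and biotype alone, without use of the measured levels, and comprised 67 of the 55416 genes counted. Of these 67 genes, 5 encode the linker histone H1, 18 encode H2A, 19 encode H2B, 12 encode H3 and 13 encode H4. They lie in clusters, with 53 genes on chromosome 13, 10 on chromosome 3 and 3 on chromosome 11, and 1 gene, H4c16, on chromosome 6.

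The levels come from RNA-seq of epiblast-like cells (EpiLCs), the formative pluripotent cells that naïve mouse embryonic stem cells (mESCs) become when 2i and LIF are withdrawn. WT cells were the parental 46C line, which carries a GFP reporter at the neural gene Sox1, and Oct6 KO cells were 1 clone of it that carries a homozygous CRISPR/Cas9 insertion near the start codon of Oct6, official symbol Pou3f1. Both genotypes were differentiated for 48 h on fibronectin in N2B27 medium with 1% KSR, bFGF and Activin A, at 12 ng/ml and 20 ng/ml by the sample labels, whereas the design text gives the same figures in µg/ml. There were 3 libraries of each genotype, named here WT or KO replicates 1 to 3, and the design text calls the replicates paired. Since the KO line is a single clone, the effect of the mutation and of the clone cannot be told apart.

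Replication-dependent histone genes supply the nucleosome proteins that a cell needs while it copies its DNA. Their transcripts end in a conserved stem-loop in place of a poly(A) tail, which the stem-loop binding protein Slbp recognises, and they accumulate in S phase and are degraded when DNA synthesis stops. Nucleosomes are built from H3 and H4, which form a tetramer, and from dimers of H2A and H2B, while H1 binds the DNA between them. Because the libraries were made from total RNA after removal of ribosomal RNA, and not by poly(A) selection, transcripts of this kind were retained.

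The stem-loop was looked for in the genome within 120 bases after the stop codon, as a stem of 6 base pairs that starts with GG and ends with CC around a loop of 4 bases that starts with TT, with up to 1 mismatched pair. Of the 67 genes, 60 (89.6%) had such a sequence, against 33 of 21589 other protein-coding genes (0.153%). It began 22 to 59 bases after the stop codon, with a median of 32, and the core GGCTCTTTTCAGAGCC was shared by 39 genes. No match was found for H2ac22, H2bc21, H2bc22, H2bc23, H2bc24, H3c8 and H4c1, which says only that these letters were not in the window searched. The sequences that follow, each with 5 bases on either side, belong to 6 of the 7 genes whose level fell in KO EpiLCs, H2bc22 being the other, without a match. The annotated genes H2bc27 and H4c14 run on past their stem-loops, and where the transcripts end was not examined. They are read from GRCm39 at chr11:58844825-58844850 (minus strand) for H2bc26, chr11:58840170-58840195 (plus strand) for H2bc27, chr3:96177482-96177507 (plus strand) for H2bc18, chr3:96127644-96127669 (plus strand) for H2ac21, chr13:24117708-24117733 (minus strand) for H2bc1 and chr3:96170250-96170275 (minus strand) for H4c14, 5′ to 3′ on the strand of the gene, with the 16 bases of stem and loop in capitals.
H2bc26: tcaaaGGCTCTTTTCAGAGCCaccca
H2bc27: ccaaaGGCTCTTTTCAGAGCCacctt
H2bc18: caaaaGGCTCTTTTCAGAGCCacttt
H2ac21: aaaaaGGCTCTTTTAAGAGCCaccaa
H2bc1: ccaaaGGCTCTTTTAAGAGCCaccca
H4c14: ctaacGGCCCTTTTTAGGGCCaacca

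Promoter windows from RefSeq, on build GRCm38.p6, were matched for 57 of the 67 genes and cover 250 bases before and 50 bases after the start of transcription. The genes without one were H2ac25, H2bc4, H2bc21, H2bc24, H2bc26, H2bc27, H3c1, H3c7, H4c14 and H4c16. The octamer ATTTGCAT, which POU factors such as Oct1 (Pou2f1) and Oct6 can bind, was searched on either strand. It was present for 13 of 57 genes (22.8%), against 1.70% of 32793 windows of other genes, each counted singly. H2bc6 had 2 windows and was counted once, a match in either being enough. The octamer was found for 6 of 17 H2A and 7 of 14 H2B genes, and for 0 of 26 H1, H3 and H4 genes. CCAAT was present for 49 of 57 genes (86.0%, against 37.3% of windows) and TATAAA for 34 of 57 (59.6%, against 13.5%). The 250 bases before the start are shown for the genes with a window that fell in KO EpiLCs, and for the most abundant gene of H1 and of H3, classes in which no gene fell. An exact match placed them on GRCm39 at chr3:96176766-96177015 (plus strand) for H2bc18, chr13:24118140-24118389 (minus strand) for H2bc1, chr3:96126951-96127200 (plus strand) for H2ac21, chr13:21971408-21971657 (plus strand) for H2bc22, chr13:23947401-23947650 (plus strand) for H1f1 and chr13:23746560-23746809 (minus strand) for H3c6, and capitals mark the octamer, CCAAT and TATAAA on either strand.
H2bc18: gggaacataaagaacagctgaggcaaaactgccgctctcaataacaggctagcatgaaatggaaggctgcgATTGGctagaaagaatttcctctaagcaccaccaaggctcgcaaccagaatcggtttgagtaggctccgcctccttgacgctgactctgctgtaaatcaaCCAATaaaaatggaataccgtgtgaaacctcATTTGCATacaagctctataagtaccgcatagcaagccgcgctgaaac
H2bc1: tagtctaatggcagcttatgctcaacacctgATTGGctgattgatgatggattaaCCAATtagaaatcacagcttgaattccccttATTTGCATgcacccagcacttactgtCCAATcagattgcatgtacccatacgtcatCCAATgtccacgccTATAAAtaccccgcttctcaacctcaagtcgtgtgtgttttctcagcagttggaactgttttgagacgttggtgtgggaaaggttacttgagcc
H2ac21: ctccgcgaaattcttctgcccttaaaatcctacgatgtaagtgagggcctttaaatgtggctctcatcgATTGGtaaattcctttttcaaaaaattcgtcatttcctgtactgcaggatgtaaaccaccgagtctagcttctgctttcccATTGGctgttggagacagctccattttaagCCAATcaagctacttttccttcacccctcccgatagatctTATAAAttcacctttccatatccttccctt
H2bc22: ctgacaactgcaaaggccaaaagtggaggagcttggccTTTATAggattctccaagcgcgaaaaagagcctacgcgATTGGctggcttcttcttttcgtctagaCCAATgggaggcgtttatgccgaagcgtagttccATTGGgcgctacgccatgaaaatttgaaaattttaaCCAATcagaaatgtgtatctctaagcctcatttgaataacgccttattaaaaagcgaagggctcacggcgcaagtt
H1f1: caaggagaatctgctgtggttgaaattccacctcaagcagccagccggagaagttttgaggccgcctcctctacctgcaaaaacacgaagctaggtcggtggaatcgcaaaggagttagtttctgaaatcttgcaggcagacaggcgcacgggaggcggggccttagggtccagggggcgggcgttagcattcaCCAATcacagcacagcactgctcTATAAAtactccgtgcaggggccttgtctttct
H3c6: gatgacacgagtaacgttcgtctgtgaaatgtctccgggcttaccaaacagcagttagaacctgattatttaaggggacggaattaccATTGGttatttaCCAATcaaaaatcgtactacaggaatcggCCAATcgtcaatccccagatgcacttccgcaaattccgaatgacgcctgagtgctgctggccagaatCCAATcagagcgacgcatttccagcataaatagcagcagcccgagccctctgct

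The octamer started 48 bases before the start of H2bc18 and 164 bases before that of H2bc1. The window of H2bc1 overlaps that of its divergent neighbour H2ac1 (chr13:24118170-24118419), so that both genes share this octamer. Neither H2ac21 nor H2bc22 had the octamer in its window. Among H2A and H2B genes, 2 of 13 tested with an octamer in the window and 2 of 16 tested without it had a lower level in KO EpiLCs, with median log2 fold changes of −0.12 and −0.04. Over all genes tested, 12.5% were lower. With the replicate number as a block in the fit, 4 of 13 and 2 of 16 were lower, against 15.3% of all genes. H2bc26 and H2bc27, which also fell, have no window and are outside this contrast. Presence of the letters is a description and was not tested as a binding site.

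CPM are the counts of a gene relative to the TMM-normalized library size. Library totals ran from 10995505 to 14680930 counts, and the 67 histone genes took between 1.39% and 2.14% of them. Pou3f1 itself, whose mutated transcript can still be counted, had 161, 142 and 122 CPM in WT and 127, 140.5 and 128 CPM in KO libraries, listed here and hereafter from replicate 1 to replicate 3, so that its level does not check the genotype. The cells expressed the formative and general pluripotency markers, of which 2 of 6 and 2 of 3 were higher in KO EpiLCs. The 6 naïve markers summed to 171 to 176 CPM in WT and 244 to 317 CPM in KO libraries, and 4 were higher. Markers of other lineages were low, the sum of a list lying between 3.23 and 13.5 CPM in any library for primitive endoderm, mesoderm, trophoblast and fibroblasts and between 28.5 and 43.6 CPM for the neural list. Of the markers tested in those lists, 2 of 3 primitive endoderm, 1 of 1 mesoderm and 1 of 3 neural markers were higher, and 2 of 3 neural, 1 of 1 trophoblast and 1 of 3 fibroblast markers were lower. Whether these shifts in cell state bear on the histone levels was not tested.

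Oct6 KO EpiLCs had lower levels of 7 histone genes and no higher level of any, in a family that differed little as a whole. The largest decreases were those of the neighbouring H2B genes of chromosome 11, H2bc26 and H2bc27, whose mean levels in KO EpiLCs were 0.443 and 0.510 of those in WT EpiLCs. Smaller decreases were measured for H2ac21, H2bc18 and H4c14 of the chromosome 3 cluster and for H2bc1 and H2bc22 of chromosome 13. Of the 67 genes, 63 passed the filter on low counts and were tested with edgeR's quasi-likelihood test. The 7 genes with an adjusted p below 0.1 are 11.1% of those tested. By the same rule, 12.5% of all 15746 genes tested were lower, a close share. The number of decreases in this fit, which ignores the pairing of replicates, is thus not particular to histone genes. None was higher (background 11.8%), also at an unadjusted p below 0.05, at which 9 genes were lower and 0 higher, and with DESeq2, which called the same 7 genes lower and 0 higher. In either direction 24.3% of all genes were called. With a log2 fold change of at least 1 in size as well, 1 histone gene, H2bc26, was called, against a background of 6.21%. With the replicate number as a block in edgeR, 14 histone genes (22.2%) were lower, against 15.3% of all genes, and 0 higher.

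**Figure D1:**
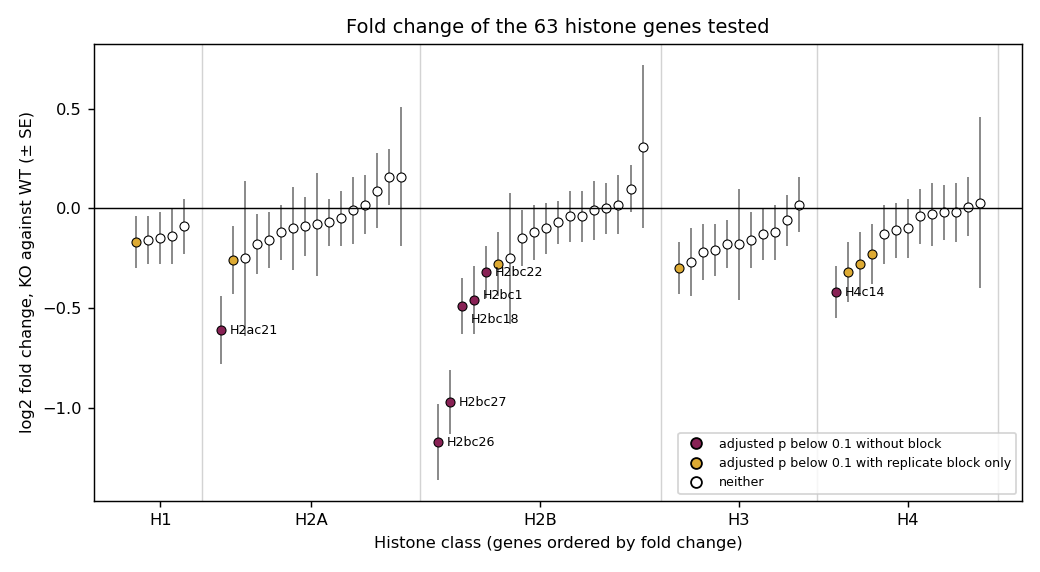
log2 fold change of KO against WT EpiLCs (vertical axis, ± SE) for the 63 histone genes tested, ordered within each class. Filled dark points have an adjusted p below 0.1 (7 genes), yellow points only with the replicate block (7 more genes); 52 of 63 points lie below 0, and H2bc26 and H2bc27 lie apart from the rest of H2B.

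The H2B genes of chromosome 11 code for core histones that differ from each other in coding sequence, 95.2% identical, and in protein. Neither protein is shared with another gene of the family. H2bc26 was at 22.2, 32.3 and 28.2 CPM in WT and at 8.33, 16.2 and 12.2 CPM in KO libraries. Every KO library lay below every WT library. The log2 fold change was −1.17 (SE 0.19, adjusted p = 2.6e-04). H2bc27 was at 85.3, 117 and 82.5 CPM in WT and at 36.4, 64 and 45 CPM in KO libraries, again without overlap, with a log2 fold change of −0.97 (SE 0.16, adjusted p = 3.4e-04). Both genes kept an adjusted p below 0.1 under each of the 18 alternative fits, with log2 fold changes from −1.42 to −0.96 for H2bc26 and from −1.22 to −0.80 for H2bc27.

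H2bc26 (chr11:58844874-58845254 on GRCm39, minus strand) lies within 5 kb of H2bc27 (chr11:58838848-58840361, plus strand). The third histone gene there, H2ac25, encodes H2A and starts 256 bases from H2bc26 in the opposite direction, and its log2 fold change was −0.25 (SE 0.39, adjusted p = 0.724) on 243 counts over the 6 libraries. Of H2ac25, 71.3% of the exon sequence is also exon of Trim17 on the same strand, and 87.9% of H2bc26 is covered by Trim17 on the opposite strand, but Trim17 held 16 counts over all libraries against 1546 for H2bc26. In a set chosen after the values were seen, the 7 other genes tested within 50 kb of these 3 genes, 1 was lower (Rnf187, log2 fold change −0.31, adjusted p = 0.0297) and 0 were higher, with a median of −0.13. The largest difference among them was that of Gm56433 (−1.03, SE 0.51, adjusted p = 0.189, or 0.0670 with the replicate block, which gave 2 of 7 lower). Gm56433 was low, at 1.61 ± 0.857 CPM in WT and 0.769 ± 0.499 CPM in KO libraries (SD). It covers 6.43% of the exon sequence of H2ac25 on the opposite strand. H3f4, a histone H3 gene outside the symbol patterns, had a log2 fold change of −0.13 (adjusted p = 0.720).

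**Figure D2:**
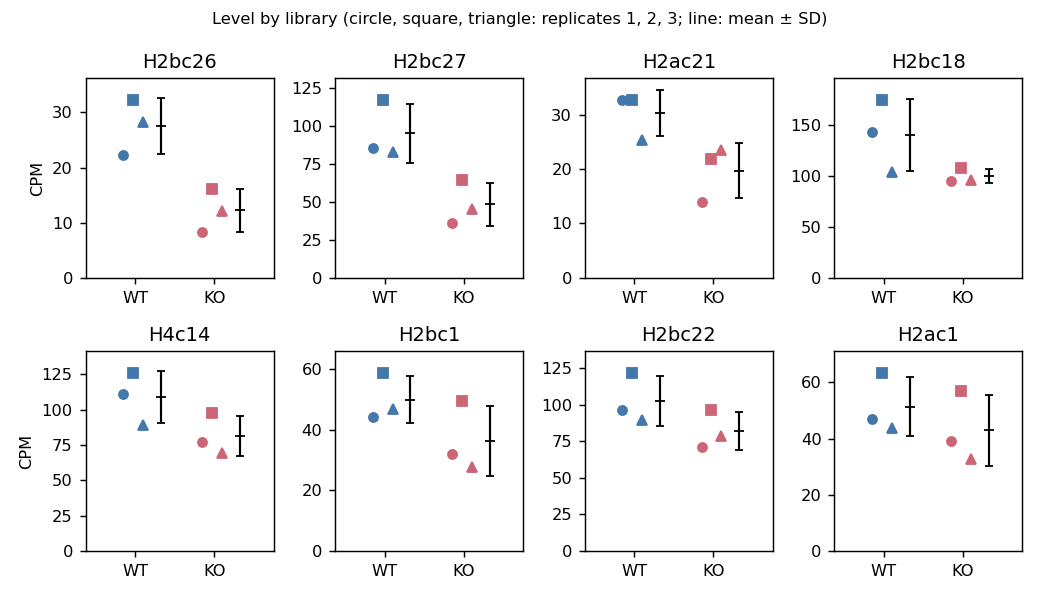
CPM (vertical axes, from 0) in each library for the 7 genes that were lower in KO EpiLCs and for H2ac1; circles, squares and triangles are replicates 1, 2 and 3 and lines show the mean ± SD of 3 libraries. WT and KO libraries do not overlap for H2bc26, H2bc27 and H2ac21 and overlap for the other genes, and replicate 2 is the highest KO library in all but H2ac21.

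The chromosome 3 cluster held 10 genes, of which 8 were tested and 3 fell. H2ac21, which codes for a form of H2A with no identical copy in the family, was at 32.7, 32.6 and 25.4 CPM in WT and at 13.9, 21.8 and 23.4 CPM in KO libraries. The groups did not overlap, although KO replicate 3 lay just below WT replicate 3. Its log2 fold change was −0.61 (SE 0.17, adjusted p = 0.0139), and its call was lost without both libraries of replicate 1 (adjusted p = 0.156, against 3.4e-04 to 0.156 over all alternatives).

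H2bc18, an H2B gene, was at 143, 175 and 104 CPM in WT and at 95.1, 108 and 96.5 CPM in KO libraries. WT replicates 1 and 2 lay above all KO libraries, whereas WT replicate 3 fell inside their range. The log2 fold change was −0.49 (SE 0.14, adjusted p = 0.0167), and it missed the threshold without WT replicate 2 (adjusted p = 0.108) or without both libraries of replicate 2 (adjusted p = 0.106), the alternatives running from 1.0e-04 to 0.108. In the annotation used here its exon is wholly covered by the lncRNA Gm20628 on the opposite strand, which had 735 counts against 9242 for H2bc18, and 59.3% of it by Gm42743 on the same strand, which had 7.

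H4c14 encodes the same H4 protein as the 12 other H4 genes from a coding sequence of its own. It was at 111, 126 and 89.2 CPM in WT and at 77.0, 97.4 and 69.6 CPM in KO libraries, so that WT replicate 3 lay below KO replicate 2. The log2 fold change was −0.42 (SE 0.13, adjusted p = 0.0320), and each of 4 alternatives that leave out libraries brought it above the threshold, with adjusted p up to 0.178. Summed over the cluster, the level was 524 ± 90.9 CPM in WT and 411 ± 61.7 CPM in KO libraries (SD, n = 3), and the 773 other genes tested on chromosome 3 had a median log2 fold change of −0.02. Of these 773 genes, 117 were lower. Of 9 other genes tested within 50 kb of the cluster, Mtmr11 (−1.22, adjusted p = 4.7e-04) and Sv2a (−0.64, adjusted p = 0.0566) were lower and 0 higher, with a median of 0.13.

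H2bc1 and H2ac1 form a divergent pair on chromosome 13, known for their testis-specific protein products. H2bc1 was at 44.2, 58.7 and 46.8 CPM in WT and at 31.8, 49.3 and 27.5 CPM in KO libraries. KO replicate 2 exceeded WT replicates 1 and 3, and the log2 fold change was −0.46 (SE 0.17, adjusted p = 0.0628). H2ac1 was at 46.9, 63.4 and 43.9 CPM in WT and at 39.1, 57.1 and 32.6 CPM in KO libraries, with a log2 fold change of −0.26 (SE 0.17, adjusted p = 0.341, or 0.0503 with the replicate block). H2bc22, another H2B gene of the chromosome, was at 96.4, 122 and 89.5 CPM in WT and at 71.0, 96.5 and 78.6 CPM in KO libraries. Its groups overlapped, and its log2 fold change of −0.32 (SE 0.13, adjusted p = 0.0893) was the smallest called. The calls of H2bc1 and H2bc22 were lost in 5 and 6 of 18 alternative fits, with adjusted p up to 0.297 and 0.372. The fits that lost them all leave out libraries. With all libraries kept, both calls were also lost at the stricter threshold of 0.05, which is not among the 18 fits.

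Linker histone H1 was represented by 5 genes, all tested and all with negative log2 fold changes between −0.17 and −0.09, of which 0 passed the threshold in edgeR or DESeq2 and 0 had an unadjusted p below 0.05. H1f1 was the most abundant per length, at 1746 CPM per kb of exon on average. Its level was 1212, 1651 and 1138 CPM in WT and 1152, 1508 and 1099.8 CPM in KO libraries (adjusted p = 0.718). H1f5 was at 611, 775 and 596 CPM in WT and at 561, 721 and 479.8 CPM in KO libraries, with a log2 fold change of −0.17 (SE 0.13, adjusted p = 0.426, or 0.0970 with the replicate block). In both genes replicate 2 was the highest library of its genotype, and the groups overlapped.

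Of 18 H2A genes, 16 were tested, with log2 fold changes from −0.61 to 0.16 and a median of −0.08, and H2ac21 was the gene that passed the threshold. H2ac15 and H2ac4 were the most abundant per length, at 783 and 468 CPM per kb. H2ac15 was at 286, 354 and 307 CPM in WT and at 249, 367 and 282 CPM in KO libraries (adjusted p = 0.747). H2ac4 was at 179.5, 262 and 218 CPM in WT and at 180.2, 285 and 203 CPM in KO libraries (adjusted p = 0.954). KO replicate 2 was the highest library for both.

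H2B held 5 of the 7 decreases, among 18 genes tested of 19, with a median log2 fold change of −0.11. Over all genes tested, 12.5% were lower. The H2B genes most abundant per kb of exon were not among the 5, nor was H2bc3, highest by CPM alone (559.5 in WT on average). Ranking per kb depends on the annotated exon length, from 381 bases for H2bc13 to 6150 for H2bc6. H2bc12, at 1023 CPM per kb, had 447, 596 and 468 CPM in WT and 405, 585 and 421 CPM in KO libraries (adjusted p = 0.678). H2bc13, at 733 CPM per kb, had 267, 319 and 263 CPM in WT and 233, 344 and 249.5 CPM in KO libraries (adjusted p = 0.881). The 5 genes that fell are all at 315 CPM per kb or less.

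Of 12 H3 genes, 11 were tested, with log2 fold changes from −0.30 to 0.02 and a median of −0.18, and 0 had an adjusted p below 0.1 in edgeR or DESeq2, while 1, H3c10, had an unadjusted p below 0.05. H3c6 was at 695, 762 and 543 CPM in WT and at 472, 672 and 588 CPM in KO libraries (adjusted p = 0.313). H3c10 was at 268, 333 and 225 CPM in WT and at 189, 263 and 218 CPM in KO libraries, with a log2 fold change of −0.30 (SE 0.13, adjusted p = 0.133, or 0.0138 with the replicate block). Only 8.01% of the 100-base windows of H3c10 occur once in the genome, so that its reads can be shared with other H3 genes. Reads were paired, however, and such single windows, here and below, do not take in the second read of a pair. Of the H3 genes tested, 11 of 11 were lower in the KO library of replicate 1 and 2 of 11 in that of replicate 3.

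The 13 H4 genes were all tested, with log2 fold changes from −0.42 to 0.03 and a median of −0.10. They include the most abundant gene of the family per length, H4c12, at 2029.8 CPM per kb, with 634, 785 and 568 CPM in WT and 455, 781 and 577 CPM in KO libraries (adjusted p = 0.614). H4c8, at 1624 CPM per kb, had 815, 918 and 641 CPM in WT and 577, 923 and 706 CPM in KO libraries (adjusted p = 0.682). In both genes replicate 2 was the highest library of either genotype and the groups overlapped. As for H3, more H4 genes were lower in the KO library of replicate 1 (12 of 13) than in that of replicate 3 (6 of 13). H4c16, the gene of chromosome 6, was at 775, 957 and 635 CPM in WT and at 552, 873 and 528 CPM in KO libraries, with a log2 fold change of −0.28 (adjusted p = 0.269, or 0.00650 with the replicate block). The 772 other genes tested on chromosome 6 had a median log2 fold change of −0.40, and the part of that shift in the level of H4c16 was not tested.

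The 4 genes that were not tested were H2ac24 and H2bc24, with 17 and 41 counts over the 6 libraries, and H2ac18 and H3c14, with 0. A count of 0 allows a level of up to 3 counts, or 0.202 to 0.273 CPM by library. The exon sequence of H3c14 is wholly covered by the lncRNA Gm20634 on the same strand, as is 90.3% of that of H2ac18, and Gm20634 held 1 count. How reads over both genes were counted was not tested. No 100-base window of H2ac19, H2ac23, H2ac24, H2bc23 or H2bc24 occurs once in the genome. Of the 67 genes, 43 had more than 50% of such windows unique. All 7 decreases were among the 42 of these that were tested, whose median log2 fold change was −0.16, whereas the 21 tested genes with fewer unique windows had a median of −0.05 and 0 decreases (1 with the replicate block). How reads with several matches were treated is not given in the sources used here, and its part in this contrast was not tested.

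Summed over all 67 genes, the level was 16725, 21423 and 15557 CPM in WT and 13989.8, 20284 and 14906 CPM in KO libraries. The means were 17902 ± 3105 CPM in WT and 16393 ± 3400.5 CPM in KO libraries (SD, n = 3), a log2 ratio of −0.13, against an SD of 0.27 between the replicates of a genotype on that scale, which includes the shift shared by replicate number. Within pairs of libraries with the same number the log2 ratio was −0.26, −0.08 and −0.06, lower in 3 of 3, and for H1 genes −0.15, −0.14 and −0.10. In bulk RNA, fewer cells in S phase and less histone RNA per cell cannot be told apart. H4 genes took 32.6% of the summed level, H1 genes 22.9%, H2B genes 19.4%, H3 genes 16.5% and H2A genes 8.56%. The log2 ratio of the class sums was −0.13 for H1, −0.07 for H2A, −0.13 for H2B, −0.17 for H3 and −0.12 for H4. Without WT replicate 2 the log2 ratio of the total turned to 0.02, and without KO replicate 2 it was −0.31.

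**Figure D3:**
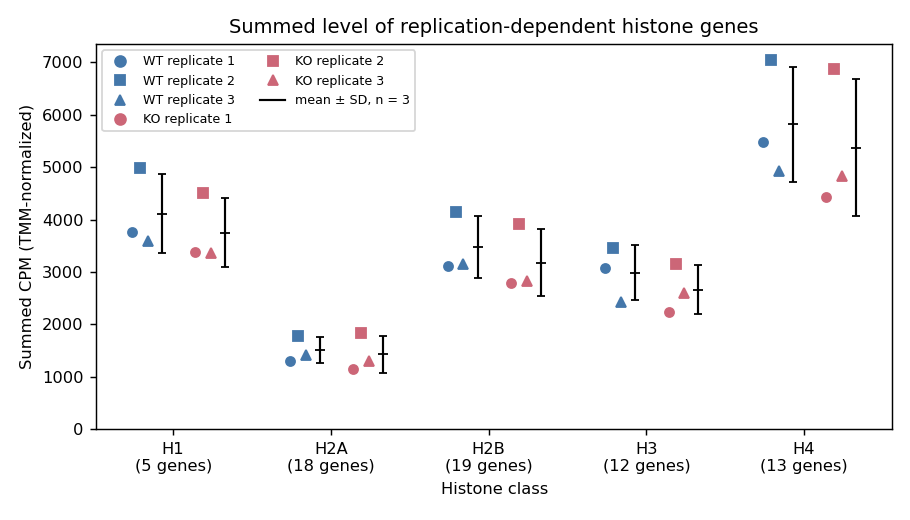
Summed CPM of each histone class (vertical axis, from 0) in the 3 WT (blue) and 3 KO (red) libraries, with the mean ± SD of each genotype. In every class the squares, replicate 2 of either genotype, stand above the other replicates of that genotype, and the genotypes overlap.

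Histone levels stood apart in replicate 2 of both genotypes. Relative to the mean of replicates 1 and 3 on the log2 scale, 60 of 63 tested histone genes were higher in WT replicate 2 and 61 of 63 in KO replicate 2, with medians of 0.40 and 0.49. The shift was seen in each class, from 0.34 for H3 to 0.46 for H1 in WT and from 0.37 for H3 to 0.58 for H2A in KO libraries. Over all genes tested the medians were −0.01 and 0.00. The 31 genes of the S-phase list had smaller medians, 0.11 and 0.09, with 23 genes higher in WT and 30 in KO replicate 2, against 7723 and 7992 of all 15746 genes. Other protein-coding genes with less than 1000 bases of exon had medians of 0.03 and 0.07, and those with 1 exon 0.01 and 0.02. Of 7 other RNAs without poly(A) tails, 5 were higher in replicate 2 of either genotype, with medians of 0.37 and 0.46. Rn7sk, the most abundant of them, was at 10846, 14253 and 9949 CPM in WT and at 11198, 16031 and 12085 CPM in KO libraries and was thus also highest in replicate 2 of each genotype. Scarna2 was at 106, 136 and 104 CPM in WT and at 95.7, 144 and 118 CPM in KO libraries. Rn7s1, by contrast, was at 10.7, 2.55 and 1.01 CPM in WT and at 2.51, 1.77 and 1.80 CPM in KO libraries, highest in replicate 1. The part of these differences in the histone levels was not tested.

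**Figure D4:**
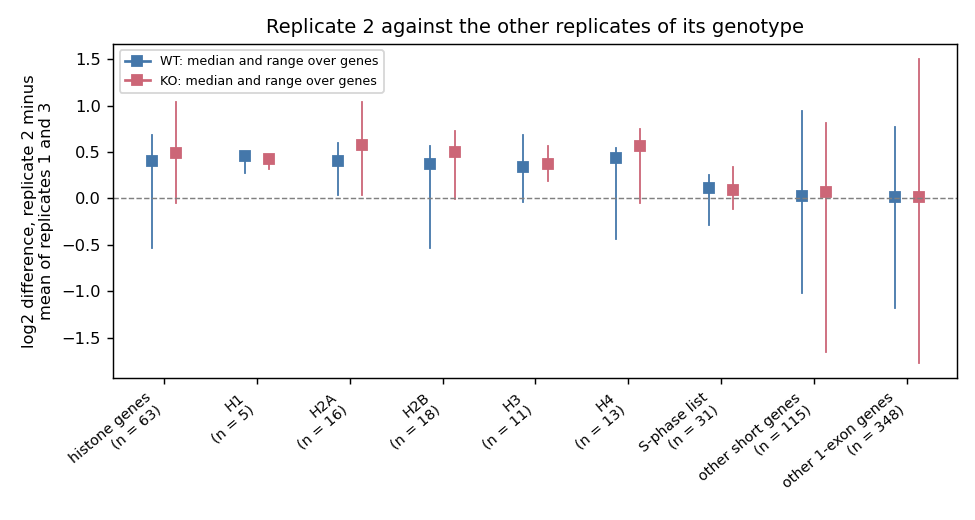
Difference of replicate 2 from the mean of replicates 1 and 3 of its genotype (vertical axis, log2 CPM with 0.5 added); squares are medians and lines the range over the genes of each set, blue for WT and red for KO. Medians of the histone classes lie between 0.34 and 0.58, while those of the S-phase list, of other genes under 1000 bases of exon (short) and of other genes with 1 exon lie between 0.01 and 0.11.

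Libraries with the same replicate number were therefore also compared in pairs. Within pairs, 55 of 63 genes were lower in the KO library of replicate 1, 39 in that of replicate 2 and 41 in that of replicate 3, with median log2 differences of −0.23, −0.08 and −0.07. In all 3 pairs, 24 genes (38.1%) were lower, against a background of 26.2%, and 1 (1.59%) was higher, against 25.9%. With the replicate number as a block in edgeR, 14 of 63 genes (22.2%) had an adjusted p below 0.1, all lower, against a background of 15.3% lower, and 0 were higher against 15%. These comprise the 7 genes called without the block together with H1f5, H2ac1, H2bc14, H3c10, H4c9, H4c11 and H4c16. The log2 fold changes of the added genes were −0.34 to −0.18 with the block, and over 18 alternatives their adjusted p ran from 0.00502 to 0.911. Without both libraries of replicate 2, a comparison chosen after seeing the data, 7 genes were lower (background 8.05%) and 0 higher, 5 of them among the 7 called with all libraries, while H2bc18 (log2 fold change −0.37, adjusted p = 0.106) and H2bc22 (−0.32, adjusted p = 0.128) missed the threshold.

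**Figure D5:**
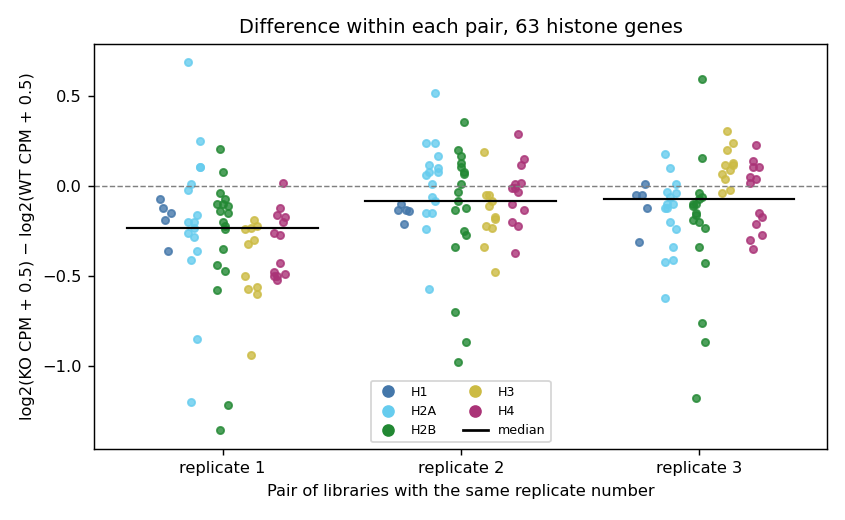
Difference between the KO and the WT library of each pair (vertical axis, log2 CPM with 0.5 added) for the 63 tested histone genes, coloured by class, with the median as a line. The medians are −0.23, −0.08 and −0.07 for replicates 1, 2 and 3, and all H3 genes lie below 0 in replicate 1 and 2 of 11 in replicate 3.

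Without overlap between groups, 3 of 63 histone genes (4.76%) had every KO library below every WT library, against 17.1% of all genes tested, and 0 had every KO library above every WT library, against 16.6%. This count ignores the pairing. Replicate 2 of both genotypes was raised for histone genes but not over all genes, which widens both groups, so these shares are not directly comparable. The number of decreases depended on which library was left out. It was 3 without WT replicate 2, 11 without WT replicate 3, 4 without KO replicate 1, 19 without KO replicate 2 and 4 without KO replicate 3. It was 3 without both libraries of replicate 1. Over all genes, 3189 were called in either direction without WT replicate 2 and 3147 without KO replicate 2, against 3833 with all libraries. The change from 3 to 19 histone genes between these fits was thus not shared by all genes. How the number of histone decreases compares with all genes depended on the library left out. The median log2 fold change over the genes tested was −0.12, against 0.00 over all genes tested, and it ran from −0.30 without KO replicate 2 to 0.02 without WT replicate 2. By position, the 51 genes tested on chromosome 13 had a median of −0.10 with 2 decreases, the 8 on chromosome 3 a median of −0.26 with 3 and the 3 on chromosome 11 a median of −0.97 with 2. On chromosomes 11 and 13 the other genes tested had medians of −0.02 and 0.08. Of the other genes tested, 165 of 1179 were lower on chromosome 11, 30 of 611 on chromosome 13 and 117 of 773 on chromosome 3.

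Histone genes often lie head to head, and 12 divergent pairs with at most 500 bases between the gene starts were found, all of them an H2A and an H2B gene. Both members were tested in 11 pairs. In 3 pairs the H2B gene fell and the H2A gene did not pass the threshold: H2bc26 with H2ac25, H2bc22 with H2ac22, and H2bc1 with H2ac1. In 0 pairs did both fall, or in 1 with the replicate block, the pair of H2bc1 and H2ac1. The median size of the difference in log2 fold change within a pair, whichever gene was lower, was 0.12. The differences went in both directions and were not tested.

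Histone genes listed as replication-independent, most of which are expressed outside S phase from polyadenylated mRNAs, changed in both directions. Of 11 such genes tested, 4 were lower and 1 higher (45.5% called, against 24.3% of all genes), with a median log2 fold change of −0.17. H1f10, a linker histone gene on chromosome 6, was at 5.73, 5.92 and 5.67 CPM in WT and at 1.46, 1.54 and 1.5 CPM in KO libraries, with a log2 fold change of −1.94 (SE 0.26, adjusted p = 4.0e-05). H1f0, the linker histone of differentiated and quiescent cells, had a log2 fold change of −0.76 (SE 0.13, adjusted p = 3.7e-04), without overlap between the genotypes. Macroh2a2, a macroH2A gene, had −0.49 (adjusted p = 0.0770). Of the genes for the variant H3.3, H3f3a was lower (−0.35, adjusted p = 0.0129) and H3f3b higher (0.23, adjusted p = 0.0967), whereas H2az1, which encodes H2A.Z, had −0.05 (adjusted p = 0.782). The calls of Macroh2a2 and H3f3b were lost in 5 and 10 of 18 alternatives, with adjusted p up to 0.336 and 0.487.

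Of 16 genes for factors that act on histone genes or their RNA, 3 (18.8%) were called, against 24.3% of all genes. Of 4 transcription factors, 0 had an adjusted p below 0.1 in edgeR, 0 an unadjusted p below 0.05 and 0 an adjusted p below 0.1 in DESeq2. Npat, the histone gene coactivator, was at 88.6 ± 10.8 CPM in WT and 98.6 ± 4.68 CPM in KO libraries (SD, n = 3; log2 fold change 0.15, adjusted p = 0.367). Casp8ap2, a component of the histone locus body, had a log2 fold change of 0.18 (adjusted p = 0.323) and Pou2f1, the octamer-binding Oct1, 0.11 (adjusted p = 0.531). Of 8 genes for processing of the RNA 3′ end, 2 were lower, Sympk (−0.41, adjusted p = 0.0144) and Zfp473 (−0.29, adjusted p = 0.0904), and 0 higher. The call of Sympk was lost in 3 and that of Zfp473 in 9 of 18 alternatives, DESeq2 calling 1 gene of this list, with adjusted p up to 0.124 and 0.496. Slbp was at 225 ± 18 CPM in WT and 241 ± 9.83 CPM in KO libraries (log2 fold change 0.10, adjusted p = 0.552), and Lsm11, a subunit of the U7 snRNP, had −0.06 (adjusted p = 0.805). Of 4 genes for degradation of histone RNA, Upf1 was lower (−0.49, adjusted p = 0.00287).

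Histone chaperones and genes of DNA replication act on the histone supply or in the same phase of the cell cycle. Of 16 chaperone genes tested, 3 were higher and 0 lower (18.8% called, against 24.3% of all genes called and 11.8% higher). The 3 were Chaf1b, a subunit of CAF-1 that deposits H3 and H4 at replication (0.67, adjusted p = 5.8e-05), Hira, which deposits H3.3 (0.59, adjusted p = 0.00438), and Nasp, which holds the pool of soluble H3 and H4 (0.31, adjusted p = 0.0821). With the replicate block in edgeR, 3 were higher and 1 lower, Chaf1a (−0.24 without the block, adjusted p = 0.0705 with it). The call of Nasp was lost in 9 of 18 alternatives, and over all 18 its log2 fold change ran from 0.14 to 0.52 and its adjusted p from 0.0100 to 0.529. Of 31 S-phase genes, 4 were higher and 1 lower (16.1% called, against 24.3% of all genes), with a median log2 fold change of 0.05, and with the replicate block 7 were higher and 1 lower. Cdc45 (0.80, adjusted p = 1.4e-05), Mcm4 (0.58, adjusted p = 1.5e-04), Ccne2 (0.44, adjusted p = 0.0166) and Tyms (0.37, adjusted p = 0.00823) were higher and Mcm2 (−0.54, adjusted p = 5.4e-04) lower. The call of Ccne2 was lost in 2 of 18 alternatives, with adjusted p up to 0.320. Pcna, the sliding clamp, was at 341 ± 30.2 CPM in WT and 384 ± 32.5 CPM in KO libraries (adjusted p = 0.268). Chaf1b, Hira, Cdc45 and Mcm4 lie on chromosome 16, on which the genes tested had a median log2 fold change of 0.55, and Mcm2 and H1f10 lie on chromosome 6, with its median of −0.40; the part of these shifts in the values was not tested. Of 7 other RNAs without poly(A) tails that were tested, 0 had an adjusted p below 0.1 in edgeR or DESeq2 and 1 had an unadjusted p below 0.05. With the replicate block in edgeR, Rn7sk was higher (log2 fold change without the block 0.17, adjusted p = 0.0582 with it) and Rn7s1 lower (−1.24, adjusted p = 0.0706 with it).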

How the data were processed

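RNA-seq libraries were prepared by the authors from total RNA of 3 WT and 3 KO EpiLC cultures with a stranded kit after ribosomal RNA depletion. Reads were checked with FastQC, trimmed with Fastp and aligned against GRCm39 with two-pass STAR, which also produced the gene abundances. The deposited values are raw counts per gene, 1 column per library, without normalization. Tool versions, the release of the annotation, whether strand was used in counting and the treatment of reads with several matches are not given in the sources used here.

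Symbols, biotypes and positions were taken from GENCODE release M39, in which 54749 of 55416 Ensembl identifiers were found. The 67 members follow from symbol and biotype alone, but the family, the lists and the genes named were chosen with earlier results of these data known. Named with values in every library were the members with an adjusted p below 0.1, the 2 with the highest CPM per kb of exon in each class, and H2bc1 and H2ac1. In addition, values per library are given for H4c16 and for RNAs without poly(A) tails, chosen after their values were seen, as were H3f4 and the genes near the chromosome 3 and 11 members.

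Counts were tested in R 4.3.3 with edgeR 4.0.16 (TMM, filterByExpr with a minimum count of 10, quasi-likelihood test, genotype as the term, Benjamini-Hochberg adjustment over the 15746 genes tested, threshold 0.1). The step was tested on simulated data. Replicates are biological, but they come from 1 line and 1 clone. SE were derived from the F statistic, and log2 differences between libraries used CPM + 0.5. Common dispersion was 0.0137, and libraries of a genotype were not copies of each other (chi-square per degree of freedom 6.94 to 11.8). Deviations from the group means correlated by 0.213, 0.256 and 0.108 in libraries with the same replicate number, across genes, which are not independent. With the design text, this paired the libraries, and a replicate block was fitted beside the main fit. The other alternatives were RLE factors, library totals, TMM without histone genes or without chromosomes 6 and 16, other filters, DESeq2 1.42.0 with and without a block, a threshold of 0.05 and libraries left out in turn or in pairs.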

Additional observations from a re-analysis of the deposited data

How the results depend on the processing

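The 7 decreases of histone genes numbered 11 without a filter on low counts, 14 with the replicate block in edgeR and 12 with the block in DESeq2, and from 3 to 19 with a library left out in turn; without both libraries of replicate 1 they numbered 3. All were decreases. The cause was not tested. RLE factors, library totals, either restricted TMM, the stricter filter, DESeq2 and omission of both libraries of replicate 2 gave 7, omission of both libraries of replicate 3 gave 6 and a threshold of 0.05 gave 5. The log2 ratio of the summed histone level, −0.13, moved by less than the SD of 0.27 between replicates in every alternative run; it was −0.13 as the mean of the differences within pairs (replicate block), but ran from −0.31 without KO replicate 2 to 0.02, with its sign turned, without WT replicate 2. Over all genes, 3833 were called, 3058 to 3790 with a library left out and 2498 without both libraries of replicate 2, which leaves fewer samples. The companion lists held 16 called genes, 12 to 21 with a library left out and 10 without both libraries of replicate 2, and 23 with the replicate block. No value of a named gene that passed the threshold changed sign. SE of the log2 fold changes of histone genes ran from 0.11 to 0.43 with 3 libraries of each genotype, the larger values belonging to genes with few counts.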
